A study of Mus musculus with 13 samples.

Results

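Hedgehog signaling in neonatal mouse skin was read from 9 genes that encode its ligand, receptors, inhibitors and transcription factors: *Shh*, *Ptch1*, *Boc*, *Smo*, *Hhip*, *Gli1*, *Gli2*, *Gli3* and *Sufu*. They were chosen by name, and they are 9 of the 49315 genes with a row in the count data. RNA-Seq was performed on full-thickness back skin at P4 from 3 WT mice and from 3 littermates labelled DKO, which carried *K14Cre* and floxed alleles of both *Kctd1* and *Kctd15* (*K14Cre+Kctd1 fl/flKctd15 fl/fl*). *K14Cre* drives recombination in keratinocytes, so that other cells of the sample, such as fibroblasts and the dermal papilla, keep both genes. The labels do not give the alleles that the WT littermates carried. The question of the comparison was how loss of both genes in keratinocytes alters gene expression in skin.

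In skin, Sonic hedgehog is made by epithelial cells of the growing hair follicle and acts on neighboring epithelium and on the dermal papilla. Binding of the ligand to Patched releases Smoothened from inhibition, and the signal passes through the primary cilium to the GLI transcription factors. *Gli1*, *Ptch1* and *Hhip* are themselves targets of the pathway, so that their transcripts are widely used as its readout.

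The 3 WT libraries held 14836798, 17643043 and 17470709 counts on genes, and the 3 DKO libraries held 11263863, 14950538 and 15050299. Normalized counts are counts scaled by TMM to the mean effective library size of the 6 libraries. The 9 genes had between 278 and 5135 counts in each library, far above the floor of 3 counts, and all 9 were among the 20168 genes with enough counts for a test. Floors and counting error leave out PCR copies, which were not told apart.

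The DKO libraries differed more among themselves than the WT libraries. The chi-square statistic per gene was 28.7, 42.4 and 64.8 for the 3 pairs of DKO replicates, against 9.69 to 14.1 for pairs of WT replicates, and it was largest for DKO replicates 1 and 2. Over all genes tested, the median coefficient of variation was 11.4% in WT and 21.2% in DKO skin. For the 9 hedgehog genes these medians were 6.46% and 15.3%, and 7 of the 9 varied more among DKO mice, as did 74.0% of all genes tested. DKO replicate 2 had the highest value of all 6 libraries for 7 of the 9 hedgehog genes, and for 29.4% of all genes tested.

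The targeted genes were read first. *Kctd1* had 443, 410 and 442 normalized counts in the WT mice and 506, 985 and 735 in the DKO mice, here and below in the order of replicates 1, 2 and 3. *Kctd15* had 736, 737 and 763 in WT and 1131, 1509 and 1325 in DKO skin. Both were higher in each DKO library than in each WT library, and neither was called. Counts over a whole gene do not show whether a floxed exon was lost, so the directions below rest on the labels. The study's methods state that RNA-Seq showed removal of the floxed exons in mice of the DKO genotype. They do not name these libraries, and exons were not counted here.

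Markers of the cells that send and receive the signal were present. *Krt5*, *Tchh*, *Prdm1* and *Col1a1*, the most abundant markers of basal keratinocytes, the anagen follicle epithelium, the dermal papilla and dermal fibroblasts, had means of 19271, 77254, 1684 and 115758 normalized counts in WT skin. Of 119 marker genes in 17 lists, 0 were at 0 counts in every library.

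None of the 9 hedgehog genes was called in DKO skin. In edgeR's quasi-likelihood test, 0 of 9 passed an adjusted p-value under 0.05 (Benjamini-Hochberg over all genes tested) with an absolute log2 fold change over 1, where 0.0694% of all genes tested did. At an unadjusted p under 0.05 and higher in DKO there was 1 of 9, *Gli2*, against 4.96% of all genes tested, and lower in DKO there were 0 of 9, against 2.54%. DESeq2 also called 0 of 9, against 0.457% of the 33676 genes to which it gave a p-value. It gave an unadjusted p under 0.05 to *Gli2* alone among the 9, against 4.44% of those genes in either direction. The median log2 fold change of the 9 was 0.15, beside 0.02 for all genes tested, with 7 above and 2 below 0. Each 95% confidence interval, not adjusted for the number of genes, lay between -0.40 and 0.81, inside the threshold of 1 in either direction. A p-value that misses the threshold does not show that levels were equal.

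The ligand came from *Shh* (ENSMUSG00000002633, GRCm38 chromosome 5, 28456815 to 28467256). Its normalized counts were 297, 287 and 287 in WT and 365, 307 and 292 in DKO skin. DKO replicate 1 was the highest, and the lowest DKO value lay within the WT range. The log2 fold change was 0.15 (SE 0.15, 95% interval -0.19 to 0.48, adjusted p = 0.93 in edgeR), and it was 0.03 without DKO replicate 1. Genes on the opposite strand share 28.3% of the counted length of *Shh*. Whether counting used the strand was not given in the sources used here, so reads in the shared stretches cannot be told apart. These neighbors, *9530036O11Rik* and *Gm26894*, had at most 34 and 14 counts in any library.

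*Ptch1* (ENSMUSG00000021466, chromosome 13, 63508328 to 63573598) encodes the receptor that binds the ligand and holds Smoothened inactive without it. It had 4386, 4359 and 3901 normalized counts in WT and 4558, 4703 and 4433 in DKO skin. Each DKO library was higher than each WT library, but the closest pair, 4386 and 4433, differed by less than the spread within either group. The log2 fold change was 0.11 (SE 0.12, 95% interval -0.14 to 0.37, adjusted p = 0.93 in edgeR), and it was 0.05 without WT replicate 3. Among the 9 genes, *Ptch1* and *Gli2* were higher in all 3 DKO libraries than in all 3 WT libraries, against 7.24% of all genes tested, and 0 were lower in all 3, against 5.96%.

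*Boc* (ENSMUSG00000022687, chromosome 16, 44485049 to 44558897), a coreceptor that helps to present the ligand, had 1120, 1337 and 1257 normalized counts in WT and 1258, 1657 and 1313 in DKO skin. The groups overlapped, and DKO replicate 2 stood above the other 5 libraries. Its log2 fold change was 0.19 (SE 0.15, adjusted p = 0.90 in edgeR), and 0.06 without DKO replicate 2. *Smo* (ENSMUSG00000001761, chromosome 6, 29735503 to 29761365), the transducer that Patched controls, had 1233, 1256 and 1396 in WT and 1258, 1649 and 1275 in DKO skin. Again the groups overlapped and DKO replicate 2 was the highest. The log2 fold change of *Smo* was 0.11 (SE 0.14, adjusted p = 0.95 in edgeR), and its sign turned without DKO replicate 2, at -0.028.

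*Hhip* (ENSMUSG00000064325, chromosome 8, 79965851 to 80058006), a membrane protein that binds and sequesters hedgehog ligands, had 1009, 831 and 1045 normalized counts in WT and 1162, 1016 and 1260 in DKO skin. DKO replicate 2, the highest library for 7 of the other genes, was the lowest DKO value here, and it lay within the WT range. The log2 fold change was 0.25 (SE 0.14, 95% interval -0.07 to 0.58, adjusted p = 0.80 in edgeR), and 0.15 without WT replicate 2.

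*Gli1* (ENSMUSG00000025407, chromosome 10, 127329889 to 127341589) encodes an activator whose transcription depends on the pathway. It had 1040, 1041 and 936 normalized counts in WT and 1149, 1554 and 1034 in DKO skin. DKO replicate 2 stood apart from the other 5 libraries, and DKO replicate 3 lay within the WT range. The log2 fold change was 0.31 (SE 0.17, 95% interval -0.06 to 0.68, adjusted p = 0.77 in edgeR), and 0.12 without DKO replicate 2.

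*Gli2* (ENSMUSG00000048402, chromosome 1, 118834132 to 119053619), the main activator at the start of the response, differed most among the 9 genes. It had 1229, 1323 and 1358 normalized counts in WT and 1829, 2121 and 1612 in DKO skin. The groups did not overlap, and the lowest DKO library exceeded the highest WT library by more than the SD among WT mice and by about the SD among DKO mice. The mean was 1303 ± 66.5 (SD, n = 3) in WT and 1854 ± 256 (SD, n = 3) in DKO skin. On the log2 scale the difference was 0.51 (SE 0.14, 95% interval 0.20 to 0.81), or 1.42-fold. The unadjusted p-value in edgeR was 0.00409 and the adjusted p-value was 0.321, so *Gli2* did not pass over all genes tested. DESeq2 gave an adjusted p-value of 0.14. When the 6 mice were left out 1 at a time, the log2 fold change of *Gli2* lay between 0.40 and 0.60 and its adjusted p-value in edgeR between 0.169 and 0.995. Because bulk RNA was measured, more cells of a type that express a gene and more RNA per cell cannot be told apart, for this and for the other genes.

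*Gli3* (ENSMUSG00000021318, chromosome 13, 15463235 to 15730026), which acts mainly as a repressor in the absence of ligand, had 3461, 3456 and 3018 normalized counts in WT and 2494, 3610 and 3560 in DKO skin. DKO replicate 1 was the lowest of the 6 libraries, while DKO replicates 2 and 3 were the highest. The log2 fold change was -0.04 (SE 0.16, adjusted p = 0.98 in edgeR), and 0.10 without DKO replicate 1. *Sufu* (ENSMUSG00000025231, chromosome 19, 46396896 to 46488804), which holds GLI proteins in the cytoplasm, had 776, 810 and 768 in WT and 670, 984 and 686 in DKO skin. The DKO values lay on both sides of the WT values. Its log2 fold change was -0.01 (SE 0.17, adjusted p = 0.996 in edgeR). It was above 0 without WT replicate 2, DKO replicate 1 or DKO replicate 3, at 0.0048, 0.072 and 0.078.

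**Figure D1:**
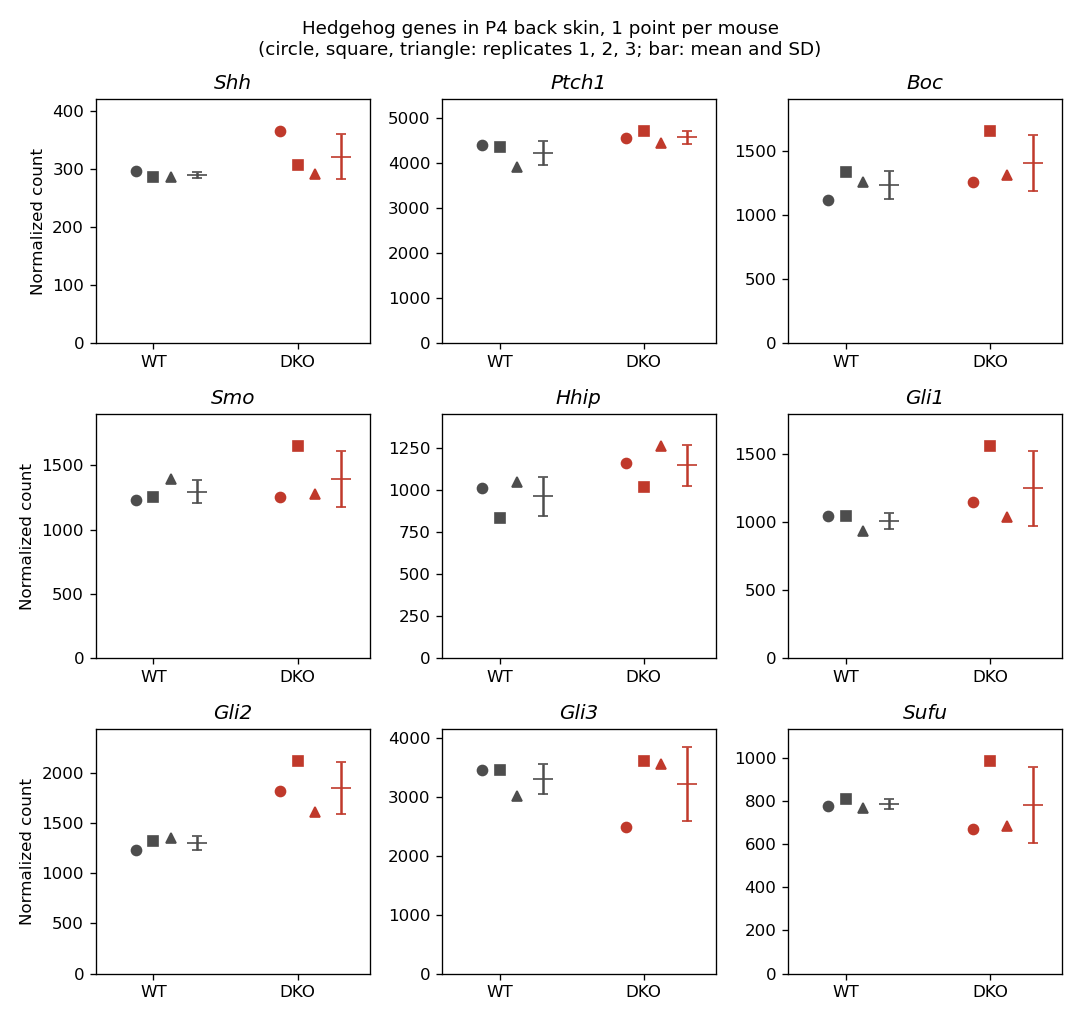
Normalized counts of the 9 hedgehog genes in P4 back skin, 1 panel per gene with the vertical axis starting at 0. Circles, squares and triangles are replicates 1, 2 and 3 of WT (gray) and DKO (red) mice, and the bar beside them gives the mean and SD (n = 3); *Gli2* is separated between the groups, at 1229 to 1358 in WT and 1612 to 2121 in DKO skin, and *Ptch1* more narrowly.

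The ratio of 2 genes within a library does not depend on the scaling between libraries. Ratios were chosen after the values were seen and were not tested. Counts of *Gli2* per count of *Smo* were 0.997, 1.05 and 0.972 in WT and 1.45, 1.29 and 1.26 in DKO skin, without overlap. Counts of *Gli2* per count of *Gli3* were 0.355, 0.383 and 0.45 in WT and 0.733, 0.588 and 0.453 in DKO skin. These groups also did not overlap, but the highest WT and the lowest DKO ratio were nearly the same. For the readout genes, the groups overlapped in *Gli1*, *Ptch1* and *Hhip* counts per count of *Smo*, with means of 0.781, 3.27 and 0.743 in WT and 0.889, 3.32 and 0.843 in DKO skin.

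Levels of different genes were compared per length, as TMM-scaled CPM divided by the counted length in kilobases. In WT skin *Ptch1* had the highest level per length, 31.8 ± 2.05 (SD, n = 3), followed by *Gli3* at 22.8 ± 1.75. *Boc* at 18.3 ± 1.62 and *Gli1* at 18.1 ± 1.08 overlapped. *Smo* followed at 15.2 ± 1.03 and *Gli2* at 12.5 ± 0.638. The lowest levels per length were those of *Sufu* at 7.44 ± 0.21, *Hhip* at 6.98 ± 0.833 and *Shh* at 6.71 ± 0.132, and the values of *Sufu* and *Hhip*, and of *Hhip* and *Shh*, overlapped among WT mice. The receptor thus had 4.73 times the level per length of the ligand. In DKO skin *Ptch1* was again the highest at 34.4 ± 1.02, but *Gli1* (22.4 ± 4.91), *Gli3* (22.1 ± 4.33), *Boc* (20.9 ± 3.2), *Gli2* (17.8 ± 2.45) and *Smo* (16.3 ± 2.59) each overlapped with a neighbor in this order. *Smo* did not overlap with *Hhip*, the next below it. Neighbors also overlapped among *Hhip*, *Shh* and *Sufu*, at 8.32 ± 0.892, 7.43 ± 0.902 and 7.40 ± 1.68.

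**Figure D2:**
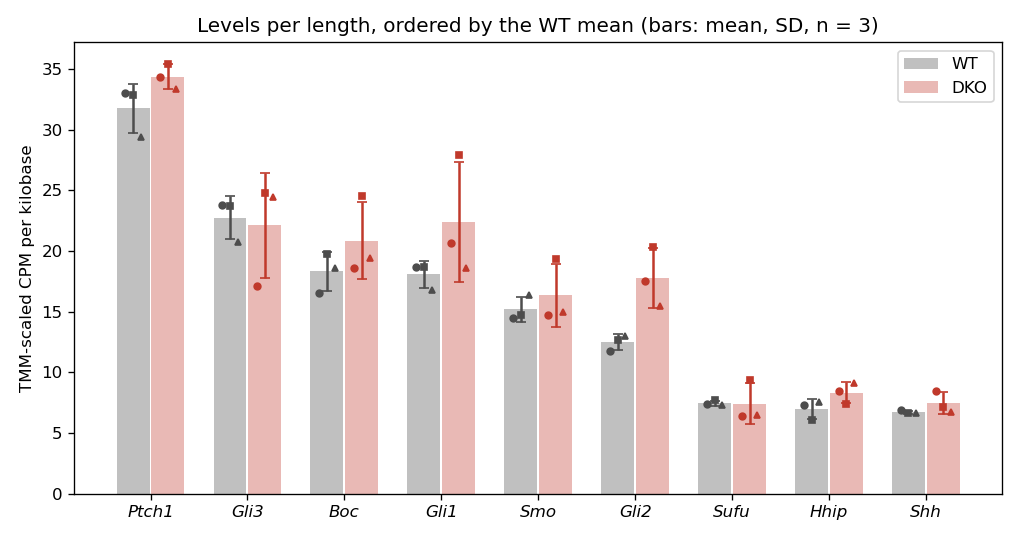
Level per length of each hedgehog gene, in TMM-scaled CPM per kilobase, ordered by the WT mean. Bars give the mean and SD of 3 WT (gray) and 3 DKO (red) mice and points give each mouse; *Ptch1* is the highest in both groups, and *Sufu*, *Hhip* and *Shh* are the lowest in both.

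Another 56 genes of the pathway were read by role, and 53 had enough counts for a test. None was called in edgeR or DESeq2 (0 of 53). At an unadjusted p under 0.05 in edgeR there were 7 higher and 0 lower in DKO skin, against 4.96% and 2.54% of all genes tested. This count was 1 without WT replicate 1, 2 without WT replicate 2 or WT replicate 3, and 3 with total counts. It was 6, 7 and 8 without DKO replicates 1, 2 and 3, and between 5 and 7 in the other edgeR settings. Without WT replicates 1, 2 and 3 the number of all genes called also fell, from 14 to 3, 2 and 2. The share of all genes at an unadjusted p under 0.05 was not counted with a mouse left out. DESeq2 gave an unadjusted p under 0.05 to 4 (*Scube3*, *Gas1*, *Bcl2* and *Sox18*), against 4.44% of all genes with a p-value there. In 8 of the 53 all DKO libraries were above all WT libraries, and in 0 they were below, against 7.24% and 5.96% of all genes tested. The median log2 fold change was 0.06, beside 0.02 for all genes tested, with 31 genes above and 22 below 0.

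For ligands and their release, 6 of 7 genes were tested, with a median log2 fold change of 0.30. *Ihh*, which encodes Indian hedgehog, had at most 5.52 normalized counts and was not tested. *Dhh*, which encodes Desert hedgehog, had 14.3, 22.9 and 28.2 in WT and 17.1, 18.8 and 11.9 in DKO skin, with overlapping groups. *Scube3*, whose family of secreted proteins helps to release the lipid-bearing ligand, had 671, 607 and 628 in WT and 780, 1078 and 743 in DKO skin. *Disp1*, the transporter that exports the ligand from the cell, had 286, 322 and 318 in WT and 394, 463 and 343 in DKO skin. For neither gene did the groups overlap, with log2 fold changes of 0.45 and 0.37 and adjusted p-values of 0.524 and 0.634 in edgeR.

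Of the 4 other receptors and coreceptors, the coreceptor genes *Gas1* and *Cdon* had the smallest p-values. *Gas1* had 1058, 1137 and 1137 normalized counts in WT and 1552, 1382 and 1363 in DKO skin. *Cdon* had 1247, 1259 and 1315 in WT and 1890, 1495 and 1407 in DKO skin. Each DKO library was higher than each WT library for both. The log2 fold changes were 0.37 (SE 0.12) for *Gas1* and 0.33 (SE 0.14) for *Cdon*, and neither passed (adjusted p = 0.458 and 0.643 in edgeR).

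The 9 genes of signal relay had a median log2 fold change of 0.14. *Arrb1*, which encodes a β-arrestin, had 989, 938 and 1045 normalized counts in WT and 1372, 1272 and 1051 in DKO skin (log2 fold change 0.31, adjusted p = 0.66 in edgeR). *Gpr161*, a ciliary receptor that restrains the pathway, had a log2 fold change of 0.24 (adjusted p = 0.865 in edgeR). For 11 genes of kinases and GLI degradation the median was -0.01. The smallest p-values there were those of *Prkaca*, a catalytic subunit of protein kinase A, and the kinase gene *Stk36*, with log2 fold changes of 0.32 and 0.38 (adjusted p = 0.787 and 0.838 in edgeR). The 12 genes of transport in the primary cilium had a median of -0.02 and lay between -0.15 (*Dync2h1*) and 0.18 (*Ift172*).

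Of 14 genes reported elsewhere as hedgehog targets, 12 were tested, and their median log2 fold change was 0.11, with 8 above and 4 below 0. *Bcl2*, which encodes an inhibitor of apoptosis, had 710, 705 and 631 normalized counts in WT and 989, 754 and 926 in DKO skin. Its groups did not overlap (log2 fold change 0.38, adjusted p = 0.539 in edgeR). *Sox18*, a transcription factor gene of endothelium and the dermal papilla, had 211, 194 and 244 in WT and 346, 458 and 212 in DKO skin, with overlap (log2 fold change 0.64, adjusted p = 0.577 in edgeR). *Foxe1*, a follicle transcription factor gene, had 282, 311 and 269 in WT and 147, 590 and 211 in DKO skin. DKO replicates 1 and 3 were below and DKO replicate 2 above each WT mouse in *Foxe1*.

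**Figure D3:**
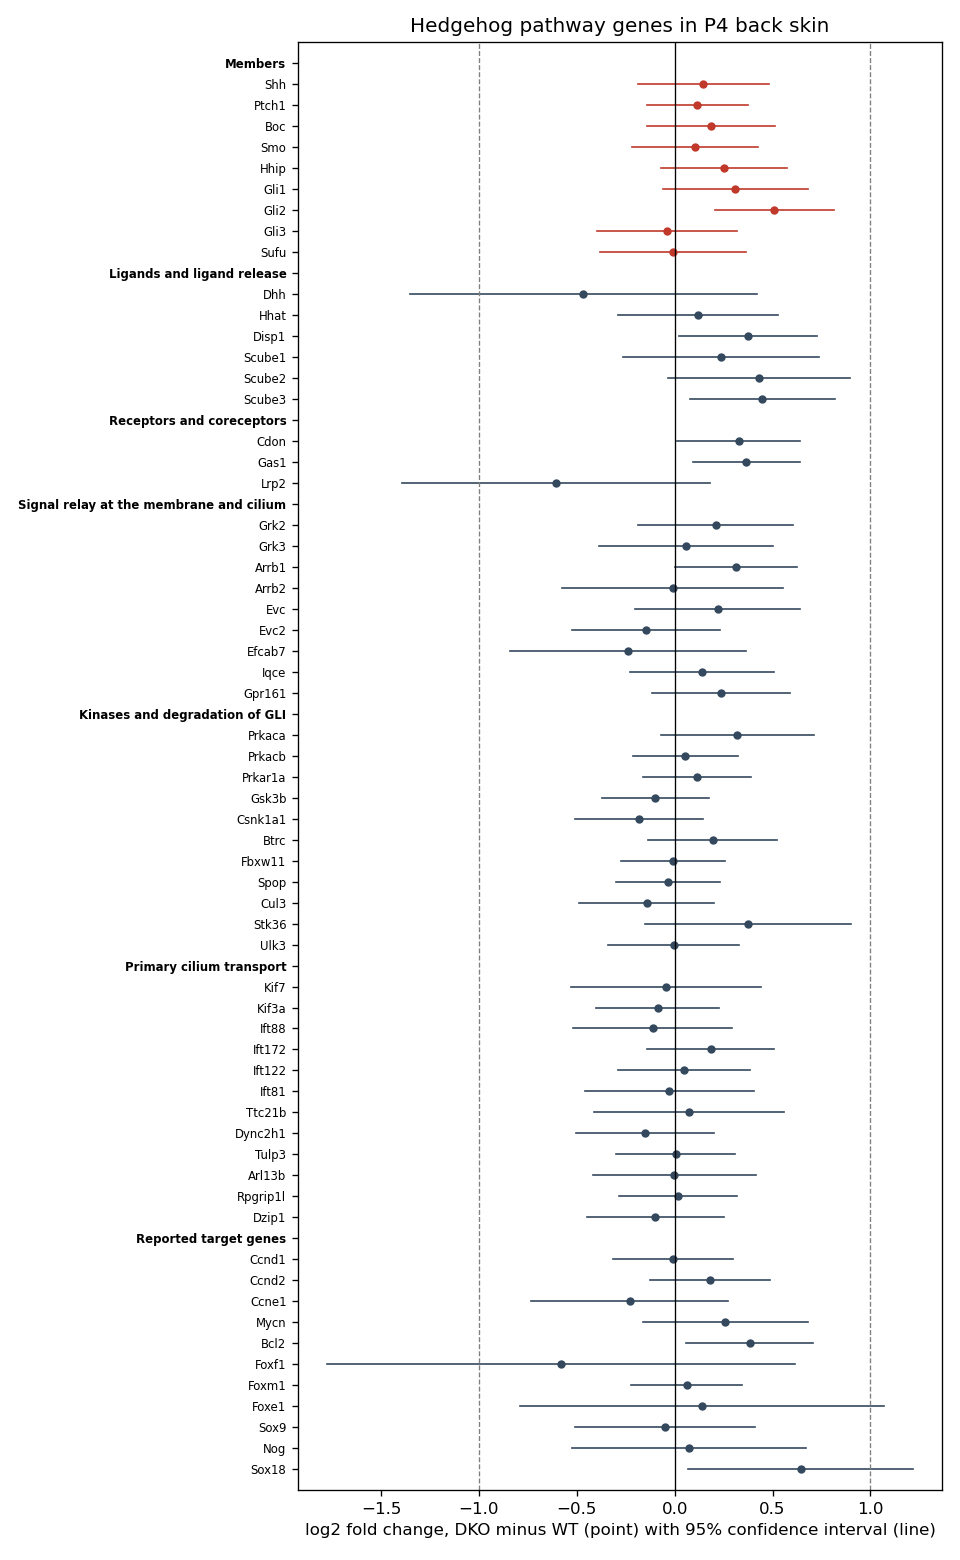
Log2 fold changes (DKO minus WT, points) with 95% confidence intervals not adjusted for the number of genes (lines) for the 9 hedgehog genes (red, labelled members) and other pathway genes tested (dark blue), grouped by role. Dashed lines mark the threshold of 1 in either direction; among the 9 genes, the interval of *Gli2* (0.20 to 0.81) does not cross 0.

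Markers of cell types were read in the same samples. The 13 markers of the hair matrix and anagen follicle epithelium summed to 211210, 213637 and 186280 normalized counts in WT and 77533, 189619 and 140289 in DKO skin. DKO replicate 1, the lowest by far, was also the lowest in *Gli3*, *Sufu* and *Foxe1*, and the highest in *Shh*. Of the 13, 0 were called in edgeR or DESeq2, and the median log2 fold change was -0.18. In edgeR 1 (*Krt71*, lower, named after its value was seen) had an unadjusted p under 0.05, against 7.50% of all genes tested. In DESeq2 4 did, against 4.44% of all genes with a p-value there. The most abundant of the 13, *Tchh*, had means of 77254 in WT and 48875 in DKO skin. With *Krt71*, *Krt25* and *Krt27* (WT means 57323, 31057 and 12629) it made up most of the sum. The log2 fold changes of these genes were -0.66, -0.73, -0.57 and -0.74. Those of the other listed genes lay between -0.33 (*Krt35*) and 0.18 (*Msx1*), named after their values were seen. The sum thus follows its most abundant genes and does not measure the cells that make *Shh*. The 7 sebaceous gland markers had a median of -1.07, with *Krt79* the most abundant. In edgeR 0 were called and 5 had an unadjusted p under 0.05, all lower, while DESeq2 called 5 lower (*Far2*, *Scd3*, *Dgat2l6*, *Awat1* and *Elovl3*, named after their values were seen). The 7 markers summed to 9467, 9693 and 7919 in WT and 3764, 8914 and 5426 in DKO skin. *Krt79* weighed most in this overlap, with 4285, 4190 and 3033 in WT and 2670, 6382 and 3556 in DKO skin. Each of the 5 genes that DESeq2 called was lower in all DKO libraries than in all WT libraries.

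Among cells that receive the signal, the 9 dermal papilla markers summed to 3834, 3843 and 4042 normalized counts in WT and 3668, 4769 and 4220 in DKO skin. Their median log2 fold change was 0.18 and the groups overlapped. The 8 fibroblast markers summed to 220513, 251143 and 270486 in WT and 297672, 374656 and 251613 in DKO skin, with *Col1a1* the most abundant and a median of 0.16. DKO replicate 2, the highest library for *Gli1* and *Gli2*, was the highest in both sums, as it was in 10 of the 17 sums, that of the genes used by every cell included. Single abundant genes weighed most there, *Col1a1* with 211906 of 374656 and *Actb* with 86102 of 125255. In that library the fibroblast markers *Col1a1* and *Col1a2* were at their highest, but *Dcn* and *Dpp4* at their lowest. Of the genes used by every cell, *Actb*, *Gapdh* and *Rplp0* were at their highest, but *Tbp* and *Hprt* at their lowest. The 7 basal keratinocyte markers summed to 47453, 50185 and 49814 in WT and 43175, 68716 and 49927 in DKO skin, with a median of 0.12.

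The groups did not overlap in 3 of the 17 sums. The 6 suprabasal keratinocyte markers summed to 86574, 87867 and 90400 normalized counts in WT and 124670, 142311 and 113037 in DKO skin. The most abundant of them was *Krt10* in WT and *Krt1* in DKO skin. The 8 skeletal muscle markers, led by *Ttn*, summed to 94065, 81333 and 85592 in WT and 275311, 127158 and 132735 in DKO skin. In edgeR 0 were called and 6 had an unadjusted p under 0.05, all higher, while DESeq2 called 5 higher (*Acta1*, *Ckm*, *Tnnt3*, *Ttn* and *Neb*, also named after their values were seen). The 8 proliferation genes, led by *Mki67*, summed to 23987, 22493 and 22386 in WT and 19433, 20131 and 22315 in DKO skin. The closest pair of these sums, 22386 and 22315, differed by less than the spread within either group. Of the 8 genes, 0 had an unadjusted p under 0.05 in edgeR or DESeq2. The medians of the log2 fold change in these lists were 0.39, 1.06 and -0.12. The part of any of these cell types in the values of the hedgehog genes was not tested.

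In the other 9 lists the sums overlapped. The medians of the log2 fold change were 0.05 for follicle stem cells and the outer root sheath (most abundant *Krt17*), 0.40 for Schwann cells, 0.04 for melanocytes (*Dct*), 0.15 for endothelial cells (*Cdh5*), 0.05 for smooth muscle and pericytes (*Rgs5*), 0.19 for adipocytes (*Fabp4*), 0.05 for leukocytes (*Csf1r*), -0.11 for red blood cells (*Hbb-bs*) and 0.03 for genes used by every cell (*Actb*). Of the 53 genes in these lists, 0 were called and 6 had an unadjusted p under 0.05 in edgeR, and DESeq2 called 2, both higher (*Des* and *Retn*, named after their values were seen). *Des* stood apart from its list, with a log2 fold change of 1.30 in edgeR. The other smooth muscle and pericyte markers lay between -0.13 (*Rgs5*) and 0.21 (*Myh11*). Over all genes tested, 7.50% had an unadjusted p under 0.05 in edgeR, and DESeq2 called 0.457% of the genes with a p-value there.

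Genes whose normalized counts varied most like those of *Shh*, *Gli1* and *Ptch1* over the 6 libraries were ranked by Pearson's r on the log2 scale among 14576 genes. With 6 libraries a high r is common, and single libraries set it. The closest to *Shh* were *Clcn1* (r = 0.996), *Sin3a* (0.994) and *Ptprm* (0.991), and 286 genes, or 1.96%, had an r over 0.9. *Clcn1*, a chloride channel gene of skeletal muscle, had 189 normalized counts in DKO replicate 1 and between 50.5 and 75.0 in the other libraries. The closest to *Gli1* were *Ankrd52* (0.996), *Scamp3* (0.994) and *Tmem147* (0.991), with 472 genes, or 3.24%, over 0.9, and all 3 were highest in DKO replicate 2. The closest to *Ptch1* were *Eefsec* (0.999), *Hoxc6* (0.993) and *Glis1* (0.982), with 77 genes, or 0.528%, over 0.9. All 3 were lowest in WT replicate 3, as *Ptch1* was.

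Promoter windows from RefSeq (GRCm38.p6), from 250 bases before to 50 after the gene start, were found for 6 of the 9 genes: *Gli2*, *Gli3*, *Hhip*, *Ptch1*, *Smo* and *Sufu*. GLI proteins bind a consensus of the letters GACCACCCA, and this was searched on both strands together with its core CCACCC, which lies inside it. The full consensus was in 0 of the 6 windows and in 0.253% of all 32851 windows. The core was in 4 of the 6, those of *Gli2*, *Gli3*, *Hhip* and *Smo*, and in 31.5% of all windows. The windows of *Gli2* and *Ptch1* are shown because these were the genes whose groups did not overlap, and capitals mark the core on either strand. The *Gli2* window (chr1:119053570-119053869, minus strand) held it 2 times, starting 205 and 192 bases before the gene start, and the *Ptch1* window (chr13:63565686-63565985, minus strand) held it 0 times. This RefSeq start of *Ptch1* lies inside the gene as the count data define it, which runs to 63573598, so the window does not cover the outermost start. A match is a stretch of letters and was not measured as a bound site.
Gli2 promoter: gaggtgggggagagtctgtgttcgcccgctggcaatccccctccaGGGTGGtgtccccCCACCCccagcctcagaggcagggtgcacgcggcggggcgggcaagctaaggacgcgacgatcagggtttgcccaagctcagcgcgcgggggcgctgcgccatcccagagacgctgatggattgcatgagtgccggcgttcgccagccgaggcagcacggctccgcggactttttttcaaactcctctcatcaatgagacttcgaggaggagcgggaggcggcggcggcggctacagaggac
Ptch1 promoter: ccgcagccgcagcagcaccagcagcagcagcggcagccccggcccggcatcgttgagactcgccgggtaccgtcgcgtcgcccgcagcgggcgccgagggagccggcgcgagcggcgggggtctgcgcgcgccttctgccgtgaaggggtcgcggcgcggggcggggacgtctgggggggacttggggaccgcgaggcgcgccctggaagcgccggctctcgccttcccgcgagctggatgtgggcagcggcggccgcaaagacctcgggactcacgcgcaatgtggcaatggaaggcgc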

How the data were processed

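After rRNA depletion and NEBNext Ultra II library preparation, the authors trimmed the paired-end reads (Trimmomatic 0.36), aligned them to GRCm38 (STAR 2.5.2b) and summarized them by gene (featureCounts, Subread 1.5.2). The deposited values are whole-number counts per gene. The 7 epidermis libraries hold 0 for every gene and were not used. Symbols were matched for 48970 of 49315 identifiers. In R 4.3.3, genes were kept by filterByExpr, normalized by TMM and tested by the quasi-likelihood F test in edgeR 4.0.16, after a test on simulated data. The floor of 3 counts equals 0.17 to 0.266 CPM. The smallest two-sided p-value of an exact permutation test for 3 mice a group is 0.1.

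DESeq2 1.42.0, which the study's methods name, was an alternative, with its filtering cutoff set to the 0.05 of the call. This gave 154 called genes. Its default cutoff of 0.1 gave 152, and was added after an earlier count of these data had been seen. Both called 0 of the 9 hedgehog genes.

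The 9 genes and all lists were chosen with earlier results of these data known. Named in the text are the 9, *Kctd1*, *Kctd15*, the 2 tested genes of each pathway list that had the smallest p-values, *Ihh*, *Dhh*, *Cdon*, *Gas1*, *Foxe1*, the most abundant gene of each marker list, and the 3 genes most like *Shh*, *Gli1* and *Ptch1*. Values of 2 single genes under these rules are not reported here. Likeness used log2(normalized count + 1) and genes with a mean of at least 50 normalized counts.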

Additional observations from a re-analysis of the deposited data

How the results depend on the processing

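The count of 0 hedgehog genes called, and of 0 other pathway genes called, was the same under each alternative run: RLE size factors, the replicate block, DESeq2, total counts, at least 10 counts in every library, no filter on low counts, skeletal muscle genes left out of the library sizes, any fold change allowed, and each mouse left out. The number of all genes called was 14 in edgeR. It was 154 with DESeq2, 22 with total counts, 210 with no filter on low counts and 35 with the replicate block, and between 2 and 36 with a mouse left out. Added after seeing the data, DESeq2 gave 152 with its default filtering cutoff and 150 with the replicate block. *Shh*, *Ptch1*, *Boc*, *Hhip*, *Gli1* and *Gli2* had positive log2 fold changes in all 15 fits with an alternative setting. With a mouse left out the ranges were 0.03 to 0.21 for *Shh*, 0.05 to 0.14 for *Ptch1*, 0.06 to 0.25 for *Boc*, 0.15 to 0.34 for *Hhip*, 0.12 to 0.43 for *Gli1* and 0.40 to 0.60 for *Gli2*. The sign turned for *Smo* (-0.028 without DKO replicate 2, range to 0.17), *Gli3* (0.10 without DKO replicate 1, range from -0.12) and *Sufu* (0.0048, 0.072 and 0.078 without WT replicate 2, DKO replicate 1 and DKO replicate 3, range from -0.21); the cause was not tested. The adjusted p-value of *Gli2* lay between 0.124 and 0.995.

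The labels carry the number 47347 (2 WT, 2 DKO) or 40972 (1 WT, 1 DKO) without saying what it marks. In the check of pairing, deviations from the group means correlated at 0.22 for the pair with 40972 at between -0.02 and 0.16 for pairs with 47347 and at between -0.14 and -0.10 for pairs with different numbers. Every pair with the same number thus lay above every pair with different numbers. Deviations sum to 0 within a group, so these correlations depend on each other and are not separate evidence. The pattern is at most a hint from the data and not from the labels, and the block stayed an alternative. The replicate block gave *Gli2* an adjusted p-value of 0.23 in edgeR. Within 40972, with no test, the log2 ratio was 0.35 for *Shh*, 0.22 for *Ptch1*, 0.0015 for *Boc*, -0.15 for *Smo* and -0.28 for *Gli3*, each further from the edgeR value than the SD between libraries. Within 47347 it was 0.04 for *Shh*, 0.06 for *Ptch1*, 0.27 for *Boc*, 0.23 for *Smo*, 0.05 for *Gli3* and 0.07 for *Sufu*, so that the signs of *Gli3* and *Sufu* differed from those over all mice. For *Sufu* it was -0.20 within 40972. For *Gli2* it was 0.55 within 47347 and 0.43 within 40972. Differences smaller than the intervals given could not be told from 0 with 3 mice a group.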
